A study of Homo sapiens with 4 samples.

Results

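The genes described here are the 10 MYC network transcription factors *MYC*, *MYCN*, *MAX*, *MXD1*, *MXD3*, *MXD4*, *MXI1*, *MNT*, *MGA* and *MLX*. They were chosen by name, with earlier results of these data known but no threshold on measured values. All 10 are among the 20457 features of each library. RNA was sequenced from HEK293 cells, an established human embryonic kidney line. In the siCNOT4 group, 2 libraries came from cells given siRNA against *CNOT4*, a RING-type ubiquitin ligase found with the CCR4-NOT deadenylase complex. In the siControl group, 2 libraries came from unmodified cells of the same line given a negative control siRNA. Both groups received 10 nM siRNA for 72 h, so the controls also carry the effects of siRNA delivery. The labels do not say whether replicates were separate cultures, and p values therefore measure the spread between these libraries. Abundance is given in TPM (transcript abundance scaled to a fixed library sum), a measure per transcript length that sums to 1000000 in each deposited library.

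MAX is the shared partner of the network and forms heterodimers through a basic helix-loop-helix leucine zipper. MYC or MYCN with MAX activates transcription at E-boxes (the hexamer CACGTG), whereas MXD proteins, MXI1 and MNT with MAX recruit SIN3 corepressors to the same kind of site. MGA is a large protein that pairs with MAX within the Polycomb-like complex PRC1.6. MLX is a MAX-like partner for MXD1, MXD4, MNT and the glucose-sensing factors MondoA (*MLXIP*) and ChREBP (*MLXIPL*). *MYC* mRNA is known for its short life, in which removal of the poly(A) tail is an early step.

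The E-box was searched in the reference promoters of the members, because it is the site that these proteins bind. RefSeq promoters (GRCh38.p14, 250 bases before to 50 after the start) were found for 9 members, all but *MYC*. The hexamer CACGTG, which reads the same on both strands, was present in 3 of 9 (33.3%), compared with 7.43% of all 27305 promoters and 10.1% of the 10045 promoters of tested features. The windows of 30 bases below hold the E-boxes of these members and that of *ARRDC4*, a target gene of MLX and MondoA, with the E-box in capitals. Coordinates are chr17:42567038-42567067 (plus strand) for *MLX*, chr17:2401236-2401265 (minus strand) for *MNT*, chr4:2262330-2262359 (minus strand) for *MXD4* and chr15:97960481-97960510 (plus strand) for *ARRDC4*. The E-box begins 50 bases before the start site of *MLX*, 193 before that of *MNT*, 238 before that of *MXD4* and 210 before that of *ARRDC4*.
MLX: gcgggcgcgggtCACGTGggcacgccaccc
MNT: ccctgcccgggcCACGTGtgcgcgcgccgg
MXD4: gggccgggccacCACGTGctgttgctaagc
ARRDC4: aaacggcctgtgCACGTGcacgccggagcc
In the promoter windows of *MAX*, *MGA*, *MXD1*, *MXD3*, *MXI1*, *MYCN* and *TXNIP* these letters did not occur.

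Several properties of the libraries bear on every value below. *CNOT4* itself stood at 6.43 and 4.73 TPM in siControl and 3.38 and 3.81 TPM in siCNOT4, and the log2 fold change was -0.51 (SE 0.26, limma adjusted p 0.184). *CNOT4* was called lower in 3 other scalings (limma adjusted p 0.0337, 0.0252 and 0.0130). These gave -0.98 after scaling with the trimmed mean of M values (TMM), -1.15 after quantile normalization and -1.29 after removal of length and GC trends. With a pseudocount of 0.1 or no filter there was no call (limma adjusted p 0.203 and 0.220). The same held with the replicate number as a block or no variance trend (limma adjusted p 0.355 and 0.147). The value shrank to -0.32 when siControl replicate 1 was dropped, against -0.70 when its replicate 2 was. Dropping siCNOT4 replicate 1 or 2 gave -0.44 or -0.57. Depth was estimated at 32.5 to 34.5 in units of 1e6 reads from the steps of the lowest TPM values. The median log2 fold change of all 14208 tested features was 0.50, so that a member with a value near 0 lay below most features. That median became -0.02 after TMM scaling and 0.02 after quantile normalization. The siControl replicates also differed from each other, with replicate 1 higher by a median of 0.38 on the log2 scale, compared with -0.03 between the siCNOT4 replicates. Of 6 genes known from HEK293 cells, 5 reached 1 TPM in some library, and their summed level was 1051 to 1398 TPM in siControl and 740 to 786 TPM in siCNOT4. Most of that sum's difference was *VIM*, at 917 and 650 TPM in siControl and 369 and 354 TPM in siCNOT4, whereas *PAX2*, *LHX1* and *NEFM*, all at low levels, stood higher in both siCNOT4 libraries. Summed markers of other cell types were 0.58 to 0.98 against 1.05 to 1.72 TPM for leukocytes (4 genes), 0.91 to 1.503 against 5.39 to 6.91 TPM for fibroblasts (4 genes) and 0.36 to 0.38 against 0.44 to 0.57 TPM for hepatocytes (4 genes). None of these 12 genes was at 0 in all 4 libraries. The fibroblast sum was mostly *COL1A1*, at 1.39 and 0.91 TPM in siControl and 5.09 and 6.60 TPM in siCNOT4, and its part in the results was not tested. In bulk RNA, fewer cells of a kind and less RNA per cell cannot be told apart.

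*MYC* was lower and *MXD1* and *MGA* were higher in both siCNOT4 libraries than in both siControl libraries. On TPM as deposited, however, 0 of the 9 members that passed the filter on low values were called at a limma adjusted p under 0.05, and 2 (*MXD1* and *MGA*) had an unadjusted p under 0.05. Of all tested features, 12.6% were called, namely 11.3% as higher and 1.3% as lower. *MYCN* had a mean below 1 TPM and was not tested. In data simulated for this comparison over 14208 features, limma called 0 of 200 genes given a log2 change of 1 (185 had an unadjusted p under 0.05) and 200 of 200 given a change of 3. Only those 200 genes were changed in each simulation, and no shift was shared by a whole library. The real features had a median log2 fold change of 0.50, and 12.6% were called. The simulated counts therefore do not give the power for the real features. In the real libraries some genes with closer replicates were called at smaller values, such as *AURKA* at 0.64. Groups did not overlap for 4 of the 9 tested members, 2 higher and 2 lower, compared with 77.1% of all tested features (66.4% higher and 10.6% lower).

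**Figure D1:**
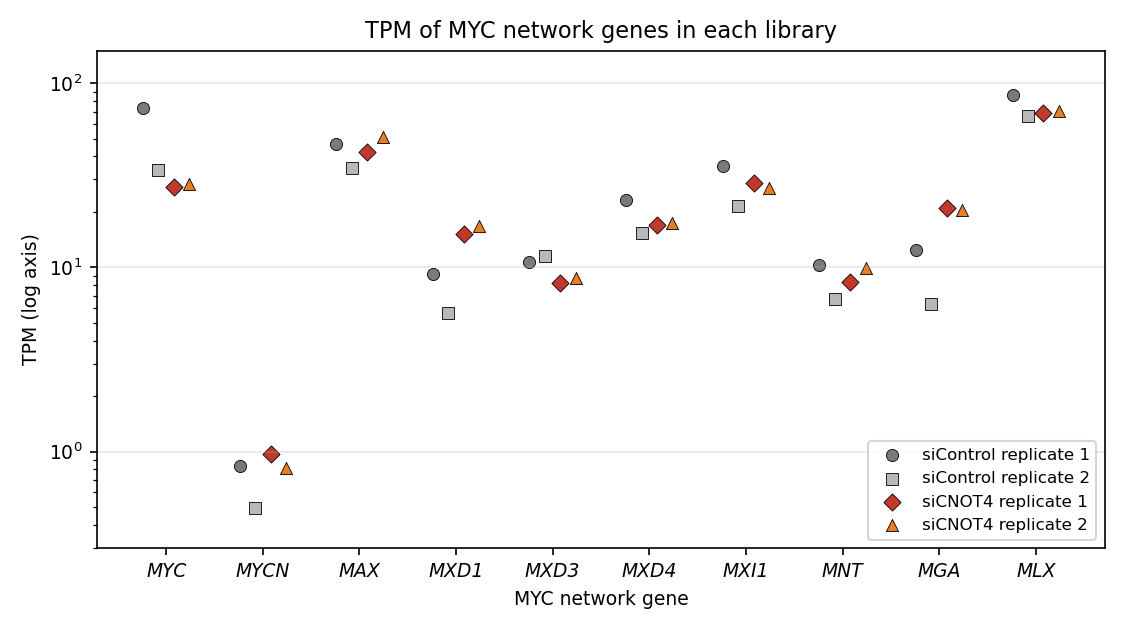
TPM of the 10 network genes on a log axis, with 1 point per library (grey, siControl; red and orange, siCNOT4). The siCNOT4 points of *MXD1* and *MGA* lie above both siControl points and those of *MYC* and *MXD3* below both, while for the other genes the groups overlap.

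*MYC*, the activator after which the network is named, stood at 73.5 and 33.9 TPM in siControl and at 27.2 and 28.5 TPM in siCNOT4. The siCNOT4 pair lay beneath both controls, but the siControl replicates lay further apart than siControl replicate 2 lay from either siCNOT4 library. The group means were 53.7 ± 28.0 and 27.8 ± 0.869 TPM (SD, n = 2 each), a ratio of 0.518. At the estimated depth the 4 libraries held about 2255, 1180, 795 and 821 *MYC* reads. Exact Poisson intervals on these reads, at a level of 95% and for counting error alone, were 70.5 to 76.6 and 32.0 to 35.9 TPM for the controls and 25.4 to 29.2 and 26.5 to 30.5 TPM for siCNOT4. Neither siCNOT4 interval reached either siControl interval, but the 2 siControl intervals did not reach each other either. Such a gap therefore also arose between replicates of 1 group. The log2 fold change was -0.82 (SE 0.37, 95% interval -1.71 to 0.07, limma adjusted p 0.138), and relative to the median of all features it was -1.32. Only 1.27% of tested features had a lower value.

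The size of the *MYC* difference depended on the control library. Without siControl replicate 1 the log2 fold change was -0.28 (limma adjusted p 0.0313), and without siControl replicate 2 it was -1.37 (limma adjusted p 0.000827). With 1 control library left, the lone library is assumed to vary like the siCNOT4 pair, and 79.6% and 57.5% of all tested features were then called. *MYC* was called as lower after TMM scaling (-1.38, limma adjusted p 0.0379), where 5.59% of features were called as lower. It was also called after quantile normalization (-1.29, limma adjusted p 0.0357), where that share was 8.23%, and after removal of length and GC trends (-1.18, limma adjusted p 0.0405), where it was 13.5%. The sign was negative in each alternative run.

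*MYCN*, the paralog of *MYC* best known from neural and embryonic tissue, was near the floor at 0.829 and 0.496 TPM in siControl and 0.964 and 0.818 TPM in siCNOT4. The groups overlapped. These values correspond to about 28, 19, 31 and 26 reads, with Poisson intervals of 0.55 to 1.199 and 0.30 to 0.77 TPM for the controls and 0.66 to 1.37 and 0.53 to 1.1995 TPM for siCNOT4, so that no difference was detectable at this depth. *MYCN* amounted to 1.13% and 1.46% of the *MYC* TPM in siControl and to 3.54% and 2.88% in siCNOT4. The related *MYCL*, listed under its older symbol *MYCL1*, had a log2 fold change of -0.36 (limma adjusted p 0.342).

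*MAX*, the obligate partner, stood at 46.5 and 34.6 TPM in siControl and at 42.6 and 51.2 TPM in siCNOT4. The groups overlapped, and the means were 40.5 ± 8.42 and 46.9 ± 6.13 TPM (SD, n = 2 each). The log2 fold change was 0.22 (SE 0.23, limma adjusted p 0.489, 95% interval -0.35 to 0.78). Its sign followed the scaling, with -0.35 after TMM scaling, -0.22 after quantile normalization and -0.25 after trend removal, none of them called by limma (adjusted p 0.162, 0.316 and 0.146).

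Because 2 genes of 1 library share its scaling, their ratio does not depend on it. The ratio of *MYC* to *MAX* TPM was 1.58 and 0.981 in siControl, compared with 0.640 and 0.556 in siCNOT4. *MYC* was thus above or close to *MAX* in the controls and below it in both siCNOT4 libraries. The mean log2 ratio was 0.32 ± 0.49 in siControl and -0.75 ± 0.14 in siCNOT4, a difference of -1.06. The two-sided p of an exact permutation test was 0.3333, which is the lowest value possible with groups of 2.

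The 4 MXD genes, whose products compete with MYC for MAX and are typically induced on differentiation or growth arrest, behaved unequally. *MXD1* stood at 9.22 and 5.68 TPM in siControl and at 15.2 and 16.8 TPM in siCNOT4. Both siCNOT4 libraries were well above both siControl libraries, with means of 7.45 ± 2.51 and 15.99 ± 1.09 TPM (SD, n = 2 each), a ratio of 2.15. The log2 fold change was 1.04 (SE 0.32, limma adjusted p 0.0688), or 0.54 relative to the median of all features. It remained positive in each alternative run, at 0.51 after TMM scaling, 0.44 after quantile normalization and 0.29 after trend removal (limma adjusted p 0.101, 0.0923 and 0.119).

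*MXD3*, which is tied to proliferating cells, had the opposite pattern. It stood at 10.7 and 11.6 TPM in siControl and at 8.20 and 8.77 TPM in siCNOT4, and the groups did not overlap. The siControl replicates differed little in this gene, by -0.10 on the log2 scale. The log2 fold change was -0.36 (SE 0.27, limma adjusted p 0.321), or -0.86 relative to the median of all features. It was -0.88 after TMM scaling (limma adjusted p 0.0606) and -0.67 after trend removal (limma adjusted p 0.0276).

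*MXD4* and *MXI1* overlapped between the groups. *MXD4* stood at 23.1 and 15.3 TPM in siControl and at 17.0 and 17.5 TPM in siCNOT4, and the log2 fold change was -0.12 (SE 0.29, limma adjusted p 0.760). *MXI1* was the most abundant of the 4 MXD genes in every library, at 35.6 and 21.7 TPM in siControl and 28.9 and 27.0 TPM in siCNOT4, and the log2 fold change was 0.01 (SE 0.29, limma adjusted p 0.987). For both genes siControl replicate 1 was the highest library and siControl replicate 2 the lowest. Relative to the median of all features their values were -0.62 and -0.49, and each was called as lower in some scalings. *MXD4* was called after quantile normalization (-0.68, limma adjusted p 0.0369) and *MXI1* after trend removal (-0.58, limma adjusted p 0.0281).

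**Figure D2:**
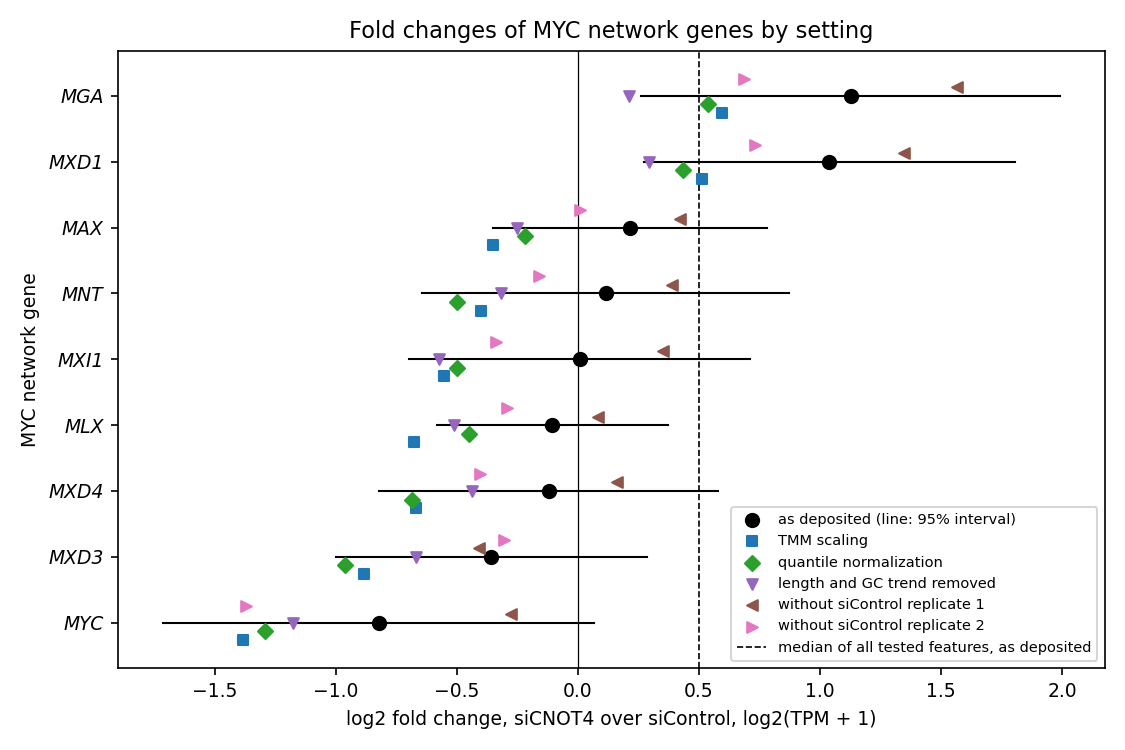
Log2 fold change of siCNOT4 over siControl for the 9 tested network genes, as deposited (black, with 95% interval) and under 5 alternatives (coloured symbols); the dashed line is the median of all tested features, 0.50. *MXD1* and *MGA* stay to the right of 0 and *MYC* and *MXD3* to the left, while *MAX*, *MNT*, *MXI1*, *MLX* and *MXD4* lie on either side of 0 depending on the alternative.

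The summed level of the 4 MXD genes was 78.7 and 54.2 TPM in siControl and 69.3 and 70.1 TPM in siCNOT4, so the siCNOT4 sums lay between the controls. Its composition differed. *MXD1* made up 11.7% and 10.5% of the sum in siControl and 21.97% and 23.9% in siCNOT4. The ratio of *MXD1* to *MXD4* was 0.399 and 0.371 in siControl, compared with 0.896 and 0.958 in siCNOT4, and the ratio of *MXD1* to *MXD3* was 0.860 and 0.490 against 1.86 and 1.91. In the controls *MXD1* had rank 9 of the 10 members in both libraries, and in siCNOT4 it had rank 7 in both. *MXD3* had ranks 7 and 6 in siControl and rank 9 in both siCNOT4 libraries. These within-library ratios are descriptions, without a test or a share over other gene pairs. They set *MXD1*, already seen to be higher, against genes that were not, and so restate the single-gene values. *MXD1* also has the longest transcript of the 4. After trend removal the log2 fold changes were 0.29 for *MXD1*, -0.67 for *MXD3* and -0.44 for *MXD4*.

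*MNT*, the most broadly expressed MAX-binding repressor, stood at 10.3 and 6.71 TPM in siControl and 8.32 and 9.94 TPM in siCNOT4. The siCNOT4 values lay between the controls, and the log2 fold change was 0.11 (SE 0.31, limma adjusted p 0.788). *MGA*, which joins MAX to PRC1.6, stood at 12.5 and 6.32 TPM in siControl and at 21.0 and 20.4 TPM in siCNOT4. Both siCNOT4 libraries were above both siControl libraries, with means of 9.40 ± 4.36 and 20.7 ± 0.375 TPM (SD, n = 2 each), a ratio of 2.20. The log2 fold change was 1.13 (SE 0.36, 95% interval 0.26 to 1.99, limma adjusted p 0.0735), or 0.63 relative to the median of all features, and 87.7% of tested features had a lower value. The ratio of *MGA* to *MNT* was 1.21 and 0.941 in siControl, compared with 2.52 and 2.05 in siCNOT4. Without siControl replicate 2 the log2 fold change of *MGA* was 0.69 and without siControl replicate 1 it was 1.57. After trend removal it was 0.21 (limma adjusted p 0.168), compared with -0.32 for the shorter *MNT*.

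Set against all 6 MAX-binding repressors together (*MXD1*, *MXD3*, *MXD4*, *MXI1*, *MNT* and *MGA*), *MYC* had a TPM ratio of 0.725 and 0.504 in siControl and of 0.276 and 0.283 in siCNOT4. The siCNOT4 ratios nearly coincided and were below both controls. The summed repressors themselves were at 101.4 and 67.3 TPM in siControl and 98.6 and 100.4 TPM in siCNOT4, within the range of the controls. The ratio of *MXD1* to *MYC* was 0.125 and 0.167 in siControl, compared with 0.559 and 0.589 in siCNOT4. This ratio sets a member already seen to be higher against *MYC*, already seen to be lower.

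**Figure D3:**
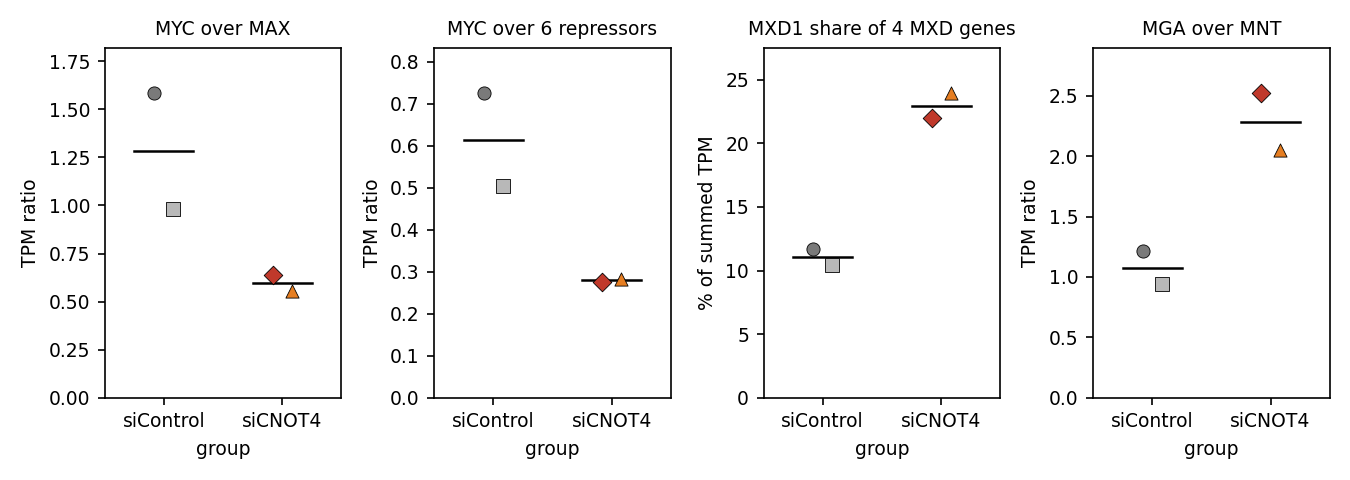
Ratios of network genes within each library (1 point per library; bar, group mean; axes start at 0). *MYC* over *MAX* and *MYC* over the 6 summed repressors are lower in both siCNOT4 libraries than in both controls, and the *MXD1* share of the 4 MXD genes and *MGA* over *MNT* are higher. The *MXD1* share and *MGA* over *MNT* set members seen to be higher against members that were not. A trend with transcript length does not cancel in these ratios.

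*MLX* was the most abundant member in all 4 libraries, at 86.2 and 66.1 TPM in siControl and 69.2 and 71.1 TPM in siCNOT4. The groups overlapped and the log2 fold change was -0.11 (SE 0.20, limma adjusted p 0.693), or -0.61 relative to the median of all features. It was called as lower after TMM scaling (-0.68, limma adjusted p 0.0454) and after trend removal (-0.51, limma adjusted p 0.0221). Its partner *MLXIP*, which encodes MondoA, stood at 19.1 and 8.26 TPM in siControl and 21.2 and 24.2 TPM in siCNOT4 (log2 fold change 0.80, limma adjusted p 0.175). The ratio of *MLXIP* to *MLX* was 0.222 and 0.125 in siControl, compared with 0.306 and 0.341 in siCNOT4. The other MLX partner, *MLXIPL*, had a log2 fold change of 0.07 (limma adjusted p 0.866).

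After TMM scaling the groups did not overlap for any of the 9 tested members, with *MXD1* and *MGA* higher and the other 7 lower in siCNOT4. The same separation was found in 69.7% of all tested features (33.1% higher and 36.7% lower). Of the members, 2 were then called by limma, *MYC* and *MLX*, both lower, where 9.89% of features were called in all (5.59% as lower). After quantile normalization 2 were called, *MYC* and *MXD4*, both lower, where 15.3% of features were called (8.23% as lower). After trend removal 4 were called, *MYC*, *MXD3*, *MXI1* and *MLX*, all lower, where 25.5% of features were called (13.5% as lower). Over the 9 tested members the median log2 fold change was 0.01, compared with 0.50 for all tested features, and 2 of 9 were above the latter.

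By level, *MLX* led in each library and *MYCN* was last in each. *MYC* had ranks 2 and 3 in siControl and 4 and 3 in siCNOT4. *MAX* had ranks 3 and 2 in siControl and rank 2 in both siCNOT4 libraries. *MGA* had ranks 6 and 8 in siControl and rank 5 in both siCNOT4 libraries. In siControl the SD of 28.0 TPM for *MYC* covered its distance from *MLX* and *MAX*, and *MXD1*, *MNT* and *MGA* could not be ordered beyond their spread. *MXD3* was above *MXD1* and *MNT* in both siControl libraries and overlapped with *MGA*. In siCNOT4 the values of *MXD3* and *MNT* overlapped, as did those of *MXI1* and *MYC*, whereas *MGA*, *MXD4* and *MXD1* kept their order in both libraries.

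The members differ in transcript length and codon composition. The longest GENCODE 29 transcripts ran from 2269 nt for *MXD3* and 2366 nt for *MYC* to 5587 nt for *MXD1* and 14439 nt for *MGA*, compared with a median of 3320 nt over 13736 tested features. Both members that were higher in siCNOT4 were thus the longest, and both that were lower were the shortest. The Spearman correlation of log2 fold change with transcript length was 0.817 over the 9 tested members and 0.383 over all tested features with a length. The difference between siControl replicates 1 and 2 had a correlation with length of 0.467 over the 10 members and 0.619 over all tested features. These correlations are descriptions over genes of the same 4 libraries. After removal of length and GC trends *MXD1* and *MGA* stood at 0.29 and 0.21, while *MYC* stood at -1.18.

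**Figure D4:**
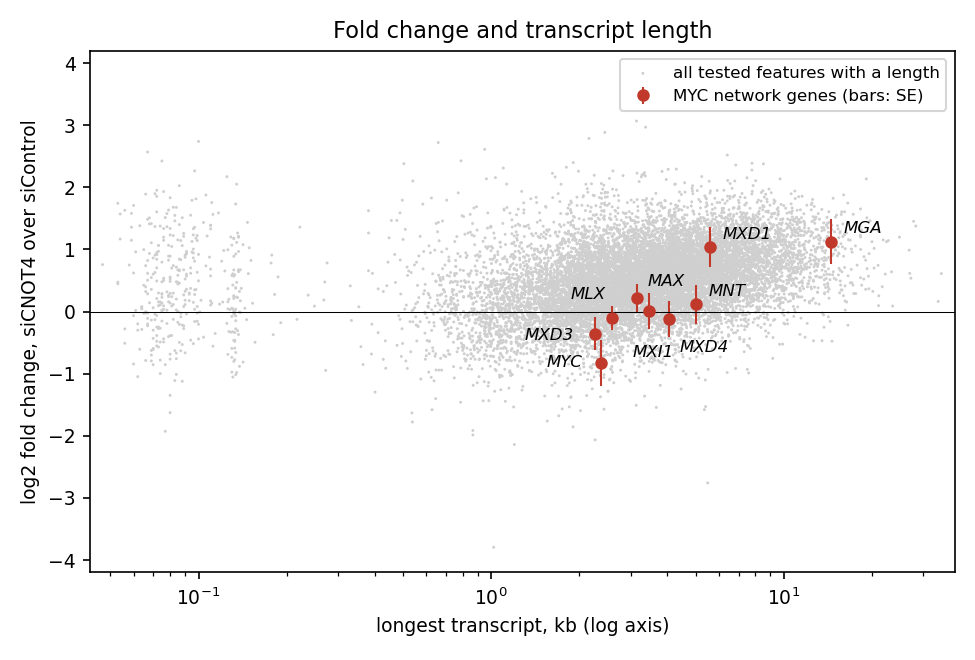
Log2 fold change of siCNOT4 over siControl against the length of the longest GENCODE transcript in kb (log axis), for all tested features with a length (grey) and the 9 tested network genes (red, bars are SE). *MYC* and *MXD3*, among the shortest members, lie lowest, and *MXD1* and *MGA*, the longest, lie highest.

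The proportion of G or C at the third position of codons (GC3) was taken as a measure of codon composition. It was 37.4% in *MGA*, a value that 12.4% of tested features with a coding sequence fell below. All other members were above the median of 58.9%, from 61.5% in *MXI1* and 65.3% in *MXD1* through 76.4% in *MYC* to 84.3% in *MXD4*. In order of rising GC3, the log2 fold changes were 1.13 for *MGA*, 0.01 for *MXI1*, 0.22 for *MAX* (64.6%) and 1.04 for *MXD1*. Next came -0.36 for *MXD3* (71.7%), -0.11 for *MLX* (73.2%) and 0.11 for *MNT* (74.8%). Last were -0.82 for *MYC* and -0.12 for *MXD4*, which had the highest GC3 of the 10. A relation between GC3 and fold change was not tested.

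The libraries were searched for features with a pattern like that of 3 members, by the distance between log2(TPM + 1) profiles over the 4 libraries, each centred on its mean. Nearest to *MYC* were the netrin receptor gene *UNC5B* (distance 0.13), the lipoprotein receptor gene *VLDLR* (0.14) and the small nucleolar RNA *SNORD20* (0.14). *UNC5B* stood at 32.8 and 13.6 TPM in siControl and 10.7 and 10.8 TPM in siCNOT4, with the same high siControl replicate 1 as *MYC*. Nearest to *MGA* were *VPS4B* (0.01), *PPP1R9A* (0.02) and *AGFG1* (0.02), and nearest to *MAX* were *PRR12* (0.03), *FOXK1* (0.04) and *TEKT4P2* (0.04).

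In 6 lists of genes that act with network members or on MYC, the called genes were all higher. They made up 0 to 13.3% of a list, beside 11.3% called higher and 1.3% called lower among all tested features. Of the 12 called genes that the naming rule chose from these and the target lists, 11 lost the call in at least 1 alternative, and *EXOSC5* kept it in each. Calls over all features fell from 1792 to 147 with the filter at a mean of 5 TPM. The share of all called features that lost the call was not computed, so the loss is not particular to these genes. Of 15 MYC coactivators 1 was called, *CCNT1*, the cyclin of the elongation kinase P-TEFb. It stood at 32.2 and 17.5 TPM in siControl and 62.6 and 59.4 TPM in siCNOT4 (log2 fold change 1.32, limma adjusted p 0.0467). The histone acetyltransferase scaffold *TRRAP* had a log2 fold change of 1.47 but was not called (limma adjusted p 0.0966), with 20.9 and 5.69 TPM in the siControl replicates. The median of the list was 0.51, next to 0.50 for all tested features.

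Of 15 genes of MYC protein turnover 2 were called, both higher (13.3% of the list, beside 12.6% of all tested features). *USP37*, a deubiquitinase that stabilizes MYC, stood at 12.3 and 6.03 TPM in siControl and 27.5 and 27.0 TPM in siCNOT4 (log2 fold change 1.55, limma adjusted p 0.0462). *AURKA*, the mitotic kinase that protects MYCN from degradation, stood at 111 and 106 TPM in siControl and 168 and 171 TPM in siCNOT4 (0.64, limma adjusted p 0.0457). After TMM scaling *USP37* was at 1.01 (limma adjusted p 0.0504) and *AURKA* at 0.06 (limma adjusted p 0.819), so neither was called. The list's median was 0.63, or 0.13 relative to all tested features, and -0.19 relative to them without siControl replicate 2.

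Of 16 regulators of *MYC* transcription and mRNA 2 were called, both higher (12.5% of the list, beside the same 12.6%). *ZFP36* (tristetraprolin), which brings CCR4-NOT to AU-rich mRNAs, stood at 8.81 and 7.02 TPM in siControl and 18.5 and 22.5 TPM in siCNOT4 (log2 fold change 1.27, limma adjusted p 0.0436). After TMM scaling *ZFP36* was not called (limma adjusted p 0.0538). The list's median was 0.32, and 4 of 16 were above the median of all tested features.

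Of 14 corepressor genes for MXD and MNT 1 was called, *RBBP7*, a histone-binding subunit of SIN3 and other complexes, at 794 and 798 TPM in siControl and 1440 and 1460 TPM in siCNOT4 (log2 fold change 0.86, limma adjusted p 0.0234). After TMM scaling its value was 0.28 (limma adjusted p 0.464). *ARID4B*, a further SIN3 subunit, was at 1.13 and not called (limma adjusted p 0.0806). Of 11 PRC1.6 subunits that work with MGA 0 were called by limma, and 0 had an unadjusted p under 0.05. The largest values there were 0.75 for *RYBP* and 0.74 for *RNF2* (limma adjusted p 0.144 and 0.180), smaller than the 1.13 of *MGA*, and the list's median was 0.44. Of the 5 further network genes (*MYCL1*, *MLXIP*, *MLXIPL*, *MYCBP* and *MYCBP2*) 0 were called by limma, and 1 had an unadjusted p under 0.05. The ubiquitin ligase gene *MYCBP2* had the highest value, 1.82 (limma adjusted p 0.0682), with 8.22 and 1.82 TPM in siControl and 17.0 and 17.1 TPM in siCNOT4.

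The pair of MLX and MondoA targets was divided. *TXNIP*, which limits glucose uptake, stood at 231 and 164 TPM in siControl and 368 and 350 TPM in siCNOT4, and the log2 fold change was 0.88 (SE 0.19, limma adjusted p 0.0436). *ARRDC4*, its arrestin-domain relative with the E-box shown above, stood at 165 and 100.04 TPM in siControl and 138 and 156 TPM in siCNOT4, and the log2 fold change was 0.19 (SE 0.26, limma adjusted p 0.579). The ratio of *TXNIP* to *ARRDC4* was 1.40 and 1.63 in siControl, compared with 2.67 and 2.24 in siCNOT4. After TMM scaling *TXNIP* was at 0.30 (limma adjusted p 0.235) and *ARRDC4* at -0.39.

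Of 62 genes known to be activated by MYC, 4 were called, all lower in siCNOT4 (6.45% of the list, compared with 12.6% of all tested features in either direction and 1.3% as lower). *EXOSC5*, a subunit of the RNA exosome, stood at 113 and 122 TPM in siControl and 41.3 and 43.7 TPM in siCNOT4 (log2 fold change -1.44, SE 0.17, limma adjusted p 0.0227). *ODC1*, the rate-limiting enzyme of polyamine synthesis and a classical E-box target of MYC, stood at 437 and 414 TPM in siControl and 261 and 245 TPM in siCNOT4 (-0.75, limma adjusted p 0.0307). *FBL*, the fibrillarin methyltransferase of box C/D ribonucleoproteins, stood at 1603 and 2215 TPM in siControl and 1142 and 1123 TPM in siCNOT4 (-0.73, limma adjusted p 0.0475). It was not called after TMM scaling, at -1.31 with a larger SE of 0.37 in place of 0.17, or after quantile normalization, at -0.42 (limma adjusted p 0.0757 and 0.0565). The remaining call, named after its value was seen, was the dCTP pyrophosphatase gene *DCTPP1* (-0.69, limma adjusted p 0.0449).

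Over the whole list of MYC-activated genes the median log2 fold change was -0.08, or -0.58 relative to all tested features, and 6 of 62 were above the median of all features. Fold change rose with transcript length over all tested features (Spearman correlation 0.38). The transcripts of *EXOSC5*, *FBL* and *ODC1* (1118, 1160 and 2653 nt) are shorter than the median of 3320 nt. A list median after trend removal was not computed, so the part of length in the lower list was not tested. The relative median was -0.48 when siControl replicate 2 was left out and -0.73 when replicate 1 was. In these 62 genes the difference between siControl replicates 1 and 2 had a relative median of -0.21. Groups did not overlap for 14 of the 62 as higher and 26 as lower, beside 66.4% and 10.6% of all tested features. In the reference promoters of this list CACGTG was present in 21 of 49 (42.9%).

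Of 10 genes known to be repressed by MYC, 9 were tested and 2 were called, in opposite directions. The stress-response gene *GADD45B* stood at 12.7 and 12.9 TPM in siControl and 27.3 and 26.8 TPM in siCNOT4 (log2 fold change 1.02, limma adjusted p 0.0466). After TMM scaling it was at 0.47 and not called (limma adjusted p 0.148). *NDRG1*, a stress- and differentiation-linked gene, stood at 139 and 117 TPM in siControl and 77.1 and 68.2 TPM in siCNOT4 (-0.81, limma adjusted p 0.0437). The list's median was 0.21, or -0.29 relative to all tested features.

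**Figure D5:**
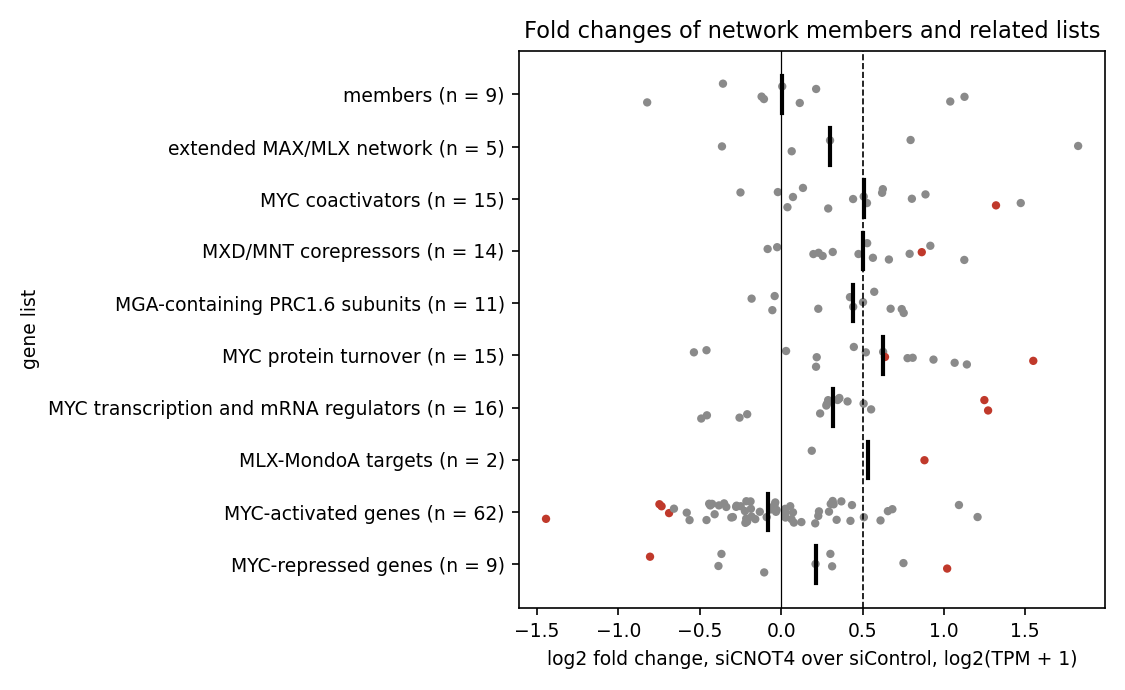
Log2 fold change of siCNOT4 over siControl for the tested members and 9 related gene lists (1 point per gene; red, limma adjusted p under 0.05; bar, list median; dashed line, median of all tested features at 0.50). The median of the 62 MYC-activated genes, -0.08, lies left of the dashed line, and that of the 15 coactivators, 0.51, lies on it.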

How the data were processed

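Libraries were poly(A)-selected and stranded, per the labels' protocols. The deposited values are TPM per gene symbol, 1 library per table, per the file headers. FastQC 0.11.2, STAR 2.5.3a, featureCounts and hg19 are named in the submitters' processing notes. The gene annotation and strand setting are not given in the sources used here. Reference names, lengths and promoters are from GRCh38, so gene coordinates other than those of promoter windows were not used here.

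Sample titles gave the groups. Values were analysed as log2(TPM + 1), which understates changes of low values, and 14208 features with a mean of at least 1 TPM were compared with limma 3.58.1 (R 4.3.3; lmFit and eBayes with trend, no covariates, 2 against 2 libraries). Benjamini-Hochberg adjustment covered all tested features, with a threshold of 0.05. Transcript lengths matched 18438 features by symbol and 946 through an older symbol or a RefSeq synonym. Depth was estimated from 102 low features. Ratios of low values between libraries were whole-number ratios within 1% for at least 98.2%. Intervals on reads cover counting error only, as PCR copies cannot be told from molecules. TMM factors were computed from the published formula (trims of 30% and 5%) in place of the planned package function, which is meant for counts.

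The members and the 9 lists were chosen with earlier results of these data known. Named genes were all members, *CNOT4*, *TXNIP*, *ARRDC4* and, of each other list, up to 3 called genes with the largest fold change, filled to 2 with uncalled ones; 1 gene chosen by this rule is not reported here. Features of like pattern were sought for *MYC*, *MAX* and the member with the largest fold change. Alternatives covered scaling, pseudocount, filter, variance trend, replicate block and each left-out library.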

Additional observations from a re-analysis of the deposited data

How the results depend on the processing

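As deposited, 1792 features and 0 members were called. The feature count was 3496 after removal of length and GC trends, 558 with a pseudocount of 0.1, 908 without a filter, 147 at a mean TPM of at least 5 and 756 without the variance trend. Leaving out 1 library gave 450 to 11311 features and 0 to 7 members, the highest counts coming without siControl replicate 1 and the next, 8171 and 6, without siControl replicate 2. Members called were 2 after TMM scaling, 2 after quantile normalization and 4 after trend removal. Of all tested features 9.89%, 15.3% and 25.5% were called in these scalings. Groups of 9 members in place of 4 did not overlap after TMM scaling, beside 69.7% in place of 77.1% of all tested features. The difference in the log2 ratio of *MYC* to *MAX* kept its sign without each library. With the replicate number as a block 3655 features and 0 members were called. The numbers are not known to pair the libraries (the differences between replicates 1 and 2 of both groups correlated at 0.171 across 14208 features).

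Signs differed from those as deposited in the following cases, and the cause was not tested. After TMM scaling the values were -0.35 for *MAX*, -0.55 for *MXI1*, -0.40 for *MNT* and -0.39 for *ARRDC4*. After quantile normalization they were -0.22, -0.50, -0.50 and -0.058 in the same order, and after trend removal -0.25, -0.58, -0.32 and -0.44, with -0.11 for *RYBP*. Without single libraries *MXD4* ranged from -0.40 to 0.16, *MXI1* from -0.34 to 0.35, *MNT* from -0.16 to 0.39, *MLX* from -0.29 to 0.083 and *ARRDC4* from -0.17 to 0.55. Of 12 list genes chosen by the naming rule and called as deposited, 11 lost the call in at least 1 alternative. The same share over all called features was not computed. Reads limit *MYCN*, at 19 to 31 reads per library, more than any other member.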
